A study of Mus musculus with 12 samples.

Results

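Succinate and itaconate are small carboxylic acids of mitochondria that macrophages use as signals. The genes described here are 10 genes of their metabolism and transport, chosen by name out of the 55487 genes counted. They are Acod1, which makes itaconate, the 4 succinate dehydrogenase (SDH) subunits Sdha, Sdhb, Sdhc and Sdhd, the 3 succinyl-CoA ligase subunits Suclg1, Suclg2 and Sucla2, the succinate receptor Sucnr1 and the plasma membrane carboxylate transporter Slc13a3. Their mRNA was measured by RNA-seq in 2 experiments on C57BL/6 mouse cells, with an age of 8 weeks in the labels. In the first, bone marrow macrophages (BMMs) from the leg bones of female mice, grown with macrophage colony-stimulating factor, were compared between ovariectomized (OVX) and sham-operated mice, with 3 libraries each. OVX removes the ovaries and their estrogen and is used as a model of postmenopausal bone loss. In the second, mesenchymal stem cells (MSCs), marrow cells kept for their adherence to plastic, were left alone (MSC), cultured with RAW264.7 cells (MSC+RAW-TW) or cultured with RAW264.7 cells stimulated with lipopolysaccharide (MSC+RAW-LPS-TW), with 2 libraries each. RAW264.7 is a mouse macrophage cell line, lipopolysaccharide (LPS) is a bacterial cell wall component that activates macrophages, and TW marks a transwell, a porous membrane between both cell layers. The labels name no transgene or edited allele in any group. The study speaks of independent experiments in general terms, but its labels and methods do not tie each library to an animal or culture, so p-values measure the spread between these libraries, which may be technical.

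In the citric acid cycle, succinyl-CoA ligase turns succinyl-CoA into succinate with a gain of ATP or GTP. Suclg1 encodes the subunit common to both forms of the ligase, Sucla2 the ATP-forming and Suclg2 the GTP-forming partner. SDH, which is also complex II of the respiratory chain, oxidizes succinate to fumarate. Sdha carries the flavin, Sdhb the iron-sulfur clusters, and Sdhc and Sdhd anchor the complex in the inner membrane. Activated macrophages divert cis-aconitate from the cycle through ACOD1 to itaconate, which inhibits SDH. Succinate released from cells acts on the receptor SUCNR1, and SLC13A3 takes up succinate and other dicarboxylates together with sodium.

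Acod1 and Slc13a3 showed the widest ranges of the 10 genes, so the 250 bases before their start sites are given here, 5′ to 3′ on the gene's strand. They come from RefSeq on GRCm38.p6, which held a promoter for 9 of the 10 genes and none for Sdhc. Capitals mark matches, in the order read, to GGNNNTTCC (a loose κB-like pattern) and TATAAA in Acod1, and to CACGTG (an E-box) and GGNNNTTCC in Slc13a3.
Acod1, chr14:103046762-103047011, plus strand: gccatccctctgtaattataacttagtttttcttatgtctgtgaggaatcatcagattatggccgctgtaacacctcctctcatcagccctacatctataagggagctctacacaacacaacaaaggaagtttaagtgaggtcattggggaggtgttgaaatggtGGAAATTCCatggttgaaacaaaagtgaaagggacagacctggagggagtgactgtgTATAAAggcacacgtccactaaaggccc
Slc13a3, chr2:165473198-165473447, minus strand: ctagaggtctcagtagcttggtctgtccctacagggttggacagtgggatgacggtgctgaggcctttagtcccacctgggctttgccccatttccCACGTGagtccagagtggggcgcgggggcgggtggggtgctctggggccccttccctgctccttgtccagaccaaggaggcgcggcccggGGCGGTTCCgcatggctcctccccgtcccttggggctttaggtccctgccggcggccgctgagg
In Acod1 the match GGAAATTCC began 85 bases and TATAAA 28 bases before the start site. In Slc13a3 the match CACGTG began 154 bases and GGCGGTTCC 64 bases before it. Both strands were searched in windows from 250 bases before to 50 after the start, and matches of TGANTCA were counted as well. The patterns were chosen after these sequences had been read. GGNNNTTCC was held by 5 of the 9 promoters and by 18.4% of 27025 mouse promoters. The share of all promoters was 14.2% for TATAAA. It was 7.2% for the E-box and 7.9% for TGANTCA (an AP-1 site). Each of the last 3 was held by 1 of the 9 promoters, TGANTCA by that of Sucnr1. A match is a run of letters and was not tested for binding.

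All libraries held between 17012923 and 45367105 counts. Sham replicates 2 and 3 were nearly identical, as were both MSC+RAW-TW libraries, so each pair was summed and counted as 1 sample, which left 3 OVX, 2 sham, 2 MSC, 1 MSC+RAW-TW and 2 MSC+RAW-LPS-TW samples. The MSC+RAW-TW sample was assumed to vary like the others. Libraries also differed in how their counts followed the GC content of genes. Spearman's rho across 15763 genes between GC content and a library's deviation from the mean log2 level lay between -0.615 and -0.338 in OVX and between 0.22 and 0.536 in sham. Across 18764 genes it was -0.242 and -0.321 in MSC, 0.411 and 0.408 in MSC+RAW-TW, and -0.289 and -0.148 in MSC+RAW-LPS-TW. GC-rich genes thus read high in sham and MSC+RAW-TW, and a value with trends on GC content and length removed stands beside each named change whose call this altered. Macrophage markers were high in every library, the MSCs included. In counts-per-million (CPM), the summed level of 20 such markers ran from 47567 to 51802 CPM in OVX and 65428 to 70203 in sham, and from 32311 to 32369 CPM in MSC, 42445 to 43020 in MSC+RAW-TW and 16975 to 17816 in MSC+RAW-LPS-TW. The 12 stromal markers summed to 11350 to 12187 CPM in OVX, 10395 to 11567 in sham, 3746 to 3843 in MSC, 2951 to 2979 in MSC+RAW-TW and 5308 to 5324 in MSC+RAW-LPS-TW. The stromal marker Thy1 did not exceed 2.16 CPM in any MSC library, and Dcn, at 204 and 184 CPM with LPS-stimulated RAW264.7 cells, lay at or under 8.07 CPM in the other MSC libraries. Lepr had 0.77 to 2.19 CPM over the MSC libraries, and Lum 21.1 and 23.7 CPM with LPS and at most 0.50 CPM in the others. Col1a1 had 454 to 794, Col1a2 608 to 1084, Sparc 941 to 1379 and Pdgfrb 139 to 167 CPM over the MSC libraries. In bulk RNA, fewer cells of a type and less RNA per cell cannot be told apart.

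Levels between genes were compared as CPM per kilobase of gene length (RPKM), with each table scaled on its own. In BMMs from sham mice Slc13a3 was the highest of the 10 genes, at 222 ± 55.2 RPKM (SD, n = 2), and in BMMs from OVX mice it was the eighth, at 14.3 ± 0.67 RPKM (n = 3). Acod1 ranked first in MSC+RAW-LPS-TW, at 466 ± 6.71 RPKM (n = 2), and seventh in MSC, at 17.5 ± 0.365 RPKM (n = 2). Sdhb was the highest in MSC, at 64.8 ± 5.11 RPKM (n = 2), and in MSC+RAW-TW, at 153 and 154 RPKM in its libraries. Suclg2 was the lowest of the 9 genes detected throughout in all 5 groups, between 2.20 and 6.10 RPKM. It shares 21.8% of its 50-base words with the processed pseudogene Gm15163, so reads of that stretch may have been lost or misassigned. That pseudogene itself had 90 counts over the BMM and 128 over the MSC libraries. No exon of any of the 10 genes overlapped another gene's exon.

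Sucnr1 (ENSMUSG00000027762, chr3:60081869-60087566, plus strand) was not detectable at this depth in 11 of the 12 libraries. A count of 0 there allows a level of up to 0.0661 to 0.176 CPM of the plain library total, taking 3 counts as the floor, which covers counting error only. Among low counts, 60.0% to 71.4% were even over the libraries. Whether both mates of a pair were counted was not tested. If they were, a count is not an independent molecule and this limit is too low. MSC+RAW-LPS-TW replicate 2 had 8 counts, or 0.241 CPM of the plain total, while replicate 1 had 0. The receptor was filtered out as too low and was not tested.

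**Figure D1:**
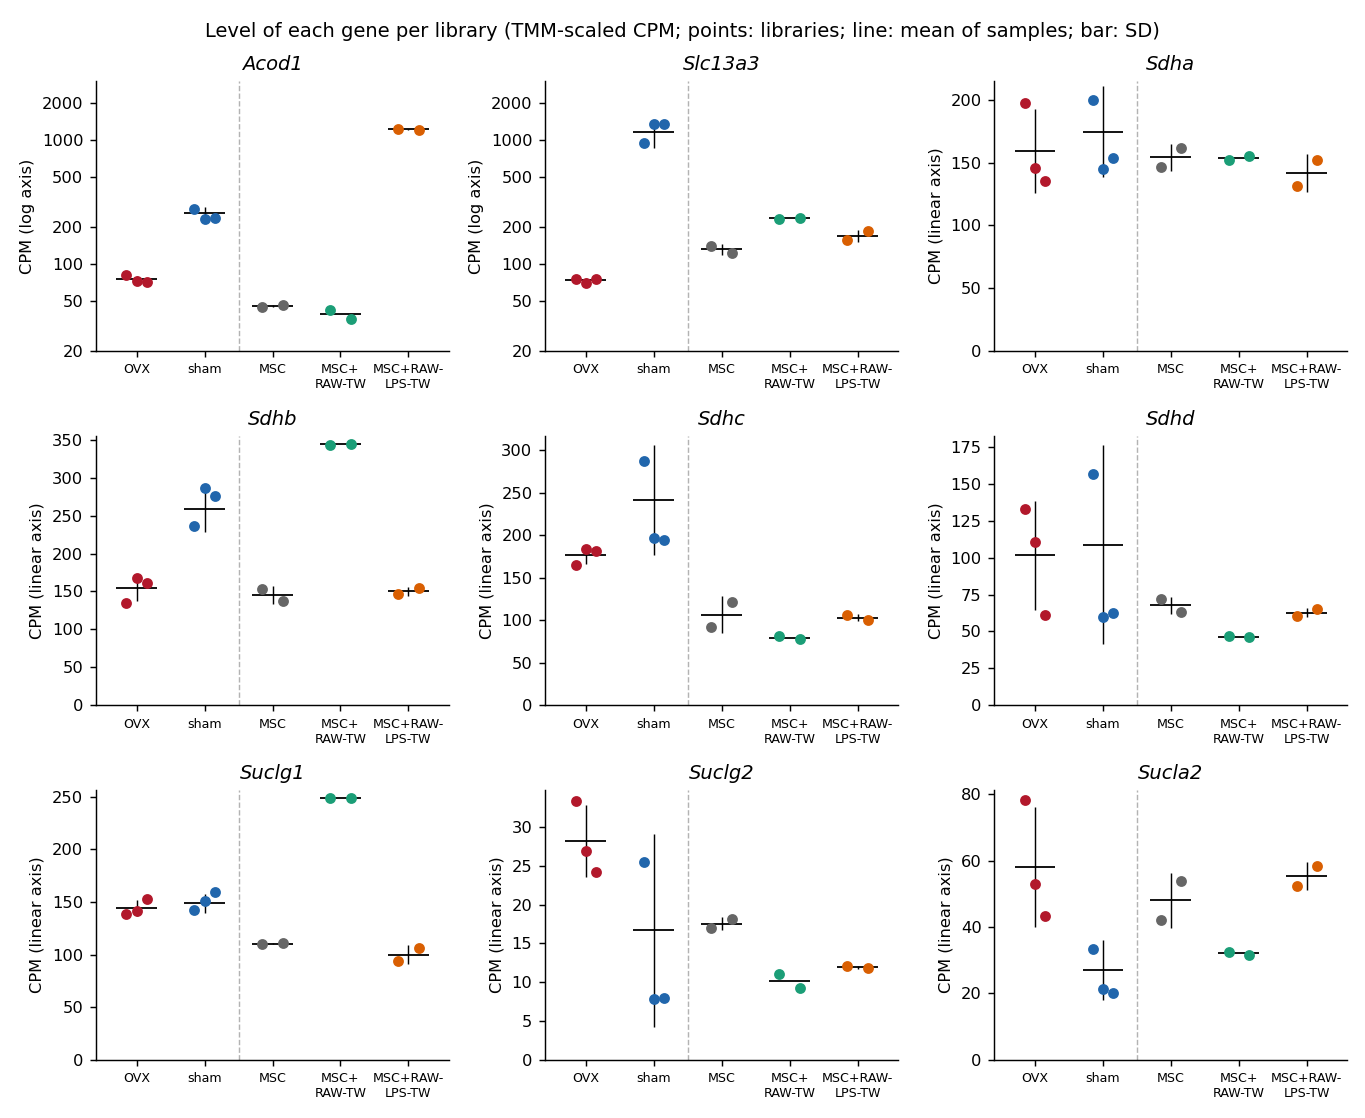
Level of the 9 detected genes in each library, in counts-per-million (CPM) scaled by TMM within each experiment, on a log axis for Acod1 and Slc13a3 and a linear axis from 0 for the others. Points are libraries, horizontal lines the mean of samples with near-identical libraries as 1, bars the SD, and the dashed line parts both experiments. Slc13a3 lies near 74.3 CPM in OVX and 1158 CPM in sham, and Acod1 near 1222 CPM only with LPS-stimulated RAW264.7 cells.

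The study set OVX against sham to examine how macrophage metabolism differs in osteoporosis. Slc13a3, Acod1 and Sdhb passed the threshold as lower in OVX by edgeR, and no member passed it as higher. Sdhb kept this call under 10 of 16 alternatives. Sucla2 was higher and just missed the threshold, and it passed under 9 of 16 alternatives. Slc13a3 and Acod1 changed at least 2-fold, so 2 of 9 tested genes passed both limits where 9.06% of 15778 genes did. At an adjusted p of at most 0.05 alone, 3 of 9 passed, all lower, beside 14.2% of all genes in either direction, 6.19% lower and 8.03% higher.

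Slc13a3 (ENSMUSG00000018459, chr2:165405028-165473230, minus strand, protein-coding), the sodium-coupled dicarboxylate transporter, had 76.1, 70.3 and 76.6 CPM in the OVX libraries. In the sham libraries it had 954, 1362 and 1361 CPM, the last 2 from the near-identical pair. The OVX libraries lay close together and far below every sham library. The difference was -3.97 ± 0.21 on the log2 scale (SE), 15.6-fold lower in OVX, with an adjusted p of 0.000315 by edgeR's quasi-likelihood test. It lay between -4.20 and -3.56 over 16 alternatives, all past the threshold. With sham replicate 1 as the only sham sample the difference was -3.68. The macrophage list fell in summed level by the values above, with 10 of its 20 markers lower and 1 higher. The 8 osteoclast markers summed to 337 to 347 CPM in OVX and 653 to 786 CPM in sham, with 4 of the 7 tested lower and 1 higher. Their part in the fall of Slc13a3 was not tested.

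Acod1 (ENSMUSG00000022126, chr14:103046977-103056573, plus strand, protein-coding), the itaconate-forming decarboxylase, had 81.6, 73.6 and 72.3 CPM in OVX and 280.1, 231 and 236 CPM in sham. The groups did not overlap. The fall was -1.77 ± 0.18 log2, 3.40-fold, with an adjusted p of 0.00379. All 16 alternatives kept it past the threshold, between -1.89 and -1.52. Beside the macrophage and osteoclast values above, the 10 neutrophil markers summed to 1202 to 1335 CPM in OVX and 808 to 944 CPM in sham, with 1 of 10 higher and 0 lower by edgeR. The 6 B cell markers summed to 61.3 to 88.0 CPM in OVX and 125 to 139 CPM in sham, with 2 of 6 lower. The part of these cells in the Acod1 level was not tested.

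Among the SDH genes only Sdhb (ENSMUSG00000009863, chr4:140961203-140979193, plus strand), the iron-sulfur subunit, passed. It had 135, 167 and 162 CPM in OVX and 237, 286 and 276 CPM in sham, with no overlap. The fall was -0.75 ± 0.19 log2 with an adjusted p of 0.0352. With GC and length trends removed it was -0.46 with an adjusted p of 0.103, and it also missed the threshold without OVX replicate 1 (-0.66, adjusted p 0.0956), without OVX replicate 2 (-0.80, 0.121), without OVX replicate 3 (-0.78, 0.0822), with sham replicate 1 as the only sham sample (-0.62, 0.111) and with library totals in place of TMM (-0.50, 0.102).

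The other SDH subunits missed the threshold. Sdha (ENSMUSG00000021577, chr13:74322254-74350280, minus strand), the flavoprotein, had 198, 146 and 135 CPM in OVX and 200.3, 145 and 154 CPM in sham, a difference of -0.14 ± 0.23 log2. Sdhc (ENSMUSG00000058076, chr1:171127165-171150603, minus strand) had 165, 183 and 182 CPM in OVX and 287, 196 and 194 CPM in sham, with -0.45 ± 0.21 log2 and an adjusted p of 0.178. Sdhd (ENSMUSG00000000171, chr9:50596357-50603812, minus strand) had 133, 110 and 61.2 CPM in OVX and 156, 59.9 and 62.7 CPM in sham. Sdhd thus varied over 2-fold within each group, and its difference was -0.10 ± 0.42 log2. Both membrane anchors were higher in sham replicate 1 than in the near-identical sham pair.

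The ligase subunits divided. Suclg1 (ENSMUSG00000052738, chr6:73248382-73276911, plus strand) was even, at 138, 141 and 153 CPM in OVX and 142, 151 and 159 CPM in sham, with -0.05 ± 0.17 log2. Sucla2 (ENSMUSG00000022110, chr14:73525319-73596142, plus strand), the ATP-forming subunit, had 78.3, 52.9 and 43.2 CPM in OVX and 33.4, 21.4 and 20.1 CPM in sham. Every OVX library lay above every sham library, yet the difference of 1.10 ± 0.31 log2 missed the threshold at an adjusted p of 0.0510. It passed without sham replicate 1 (1.49, adjusted p 0.0157), without OVX replicate 3 (1.28, 0.0375), with library totals (1.35, 0.0227) and by DESeq2 (1.09, 0.00796), and missed it with GC and length trends removed (0.62, 0.129). Suclg2 (ENSMUSG00000061838, chr6:95473009-95718800, minus strand), the GTP-forming subunit, had 33.3, 27.0 and 24.3 CPM in OVX. In sham it had 25.5 CPM in replicate 1 and 7.85 and 7.95 CPM in the near-identical pair, so one sham sample lay within the OVX range and the other far below it. The difference was 0.75 ± 0.43 log2 with an adjusted p of 0.269, and without sham replicate 1 it was 1.83 with an adjusted p of 0.00494. GC content was 43.2% in Sucla2, 44.4% in Suclg2, 45.3% in Suclg1 and 47.6% in Acod1. It was 48.5% in Sdha, 48.7% in Sdhc, 49.4% in Sdhd, 53.4% in Sdhb and 56.2% in Slc13a3.

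**Figure D2:**
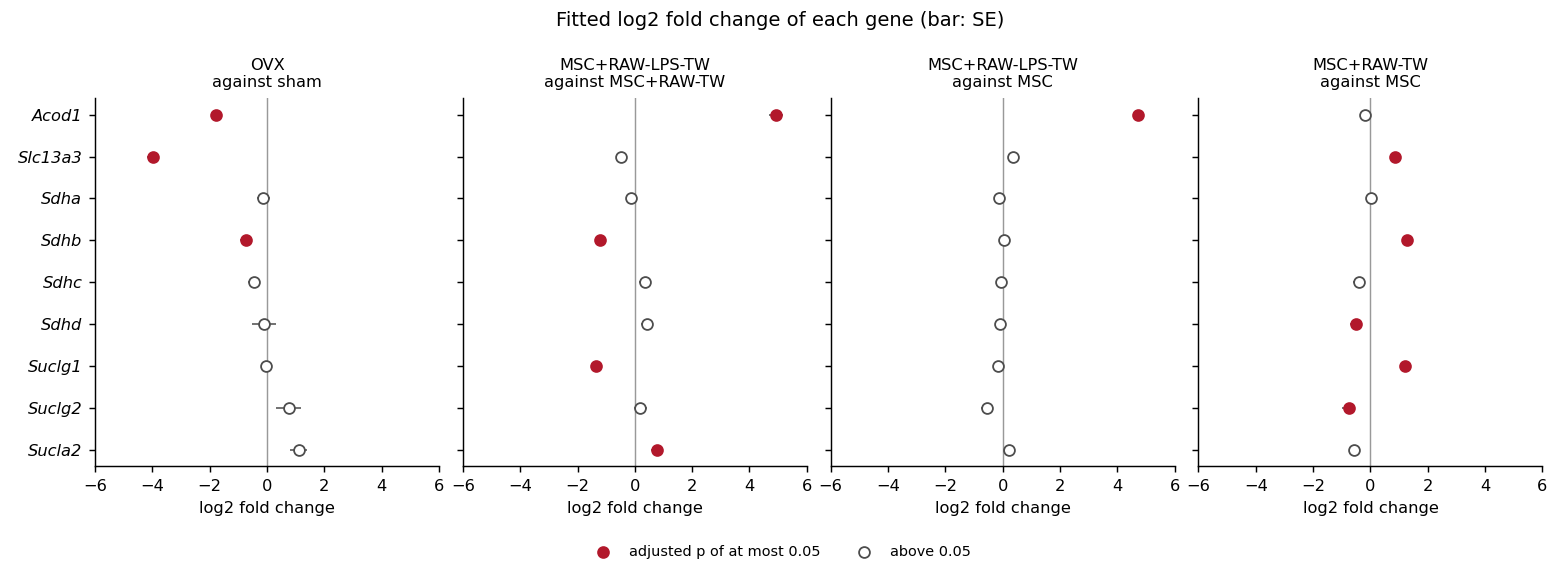
Fitted log2 fold change of the 9 tested genes in the 4 comparisons, with bars for the SE and filled points for an adjusted p of at most 0.05 by edgeR. Slc13a3 stands at -3.97 in OVX against sham, Acod1 at 4.93 and 4.74 in both comparisons with MSC+RAW-LPS-TW, and Sdhb and Suclg1 change sign between the last and the second panel, which share the MSC+RAW-TW sample.

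The second experiment asked how MSCs respond to macrophages that were or were not stimulated. Its 3 comparisons share samples, so their values are given side by side. With LPS-stimulated against unstimulated RAW264.7 cells, Acod1 and Sucla2 rose and Suclg1 and Sdhb fell. These were 4 of 9 tested genes, 2 in each direction, beside 44.5% of 18806 genes in either direction, 24.0% higher and 20.5% lower. A change of at least 2-fold was found in 3 of 9, Sucla2 being the exception, beside 30.8% of all genes. The members' share was thus near the background.

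Acod1 had 1235 and 1210.05 CPM in MSC+RAW-LPS-TW, 42.5 and 36.2 CPM in MSC+RAW-TW and 45.2 and 46.6 CPM in MSC. The 2 libraries with LPS-stimulated cells stood apart and the other 4 lay within 36.2 to 46.6 CPM. Acod1 rose by 4.93 ± 0.23 log2, 30.4-fold, against MSC+RAW-TW (adjusted p 1.52e-07) and by 4.74 ± 0.17 log2, 26.6-fold, against MSC (adjusted p 1.08e-08). Between MSC+RAW-TW and MSC it differed by -0.19 ± 0.18 log2 with an adjusted p of 0.445, and by -0.54 with 0.0320 under library totals. Both rises held under all 15 alternatives, between 4.85 and 5.08 and between 4.50 and 4.81. Acod1 is a gene of myeloid cells, and the macrophage markers moved with the groups. Their summed level was the lowest in MSC+RAW-LPS-TW, with 11 of 20 lower and 6 higher than in MSC+RAW-TW and 10 lower and 3 higher than in MSC. Neutrophil markers summed to 370 and 557 CPM there, most of it from S100a8 at 341 and 517 CPM, and to between 11.7 and 34.6 CPM in the other MSC libraries, while S100a9 was at or under 0.06 CPM and Elane and Ltf were near 0 in all MSC libraries. Camp, of the same list, had 28.7 and 39.7 CPM with LPS and 0.47 to 1.21 CPM in the other MSC libraries, and 2 of the 3 neutrophil markers tested were higher and 0 lower by edgeR in both comparisons with LPS. B cell markers summed to at most 3.02 CPM in any MSC library. Osteoclast markers summed to 826 and 891 CPM in MSC+RAW-LPS-TW, 145 and 146 CPM in MSC+RAW-TW and 108 and 111 CPM in MSC, with Mmp9 at 700 and 739 CPM in the first. The part of these cells in the Acod1 level was not tested.

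Sdhb had 146 and 155 CPM in MSC+RAW-LPS-TW, 343 and 345 CPM in MSC+RAW-TW and 153 and 137 CPM in MSC. It stood out in MSC+RAW-TW alone, and the other groups overlapped. Against MSC+RAW-TW it was 2.32-fold lower with LPS (-1.21 ± 0.17 log2, adjusted p 0.000242), and 2.40-fold higher in MSC+RAW-TW than in MSC (1.26 ± 0.17 log2, adjusted p 0.00129). Against MSC alone, MSC+RAW-LPS-TW differed by 0.05 ± 0.14 log2 with an adjusted p of 0.859. With GC and length trends removed the first difference was -0.79 and the second 0.91, both past the threshold and both under 2-fold.

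Suclg1 was also highest in MSC+RAW-TW. It measured 93.4 and 106 CPM in MSC+RAW-LPS-TW, 248 CPM in both MSC+RAW-TW libraries and 110 and 111 CPM in MSC. Against MSC+RAW-TW it was 2.53-fold lower with LPS (-1.34 ± 0.17 log2, adjusted p 0.000126) and 2.29-fold higher in MSC+RAW-TW than in MSC (1.19 ± 0.17 log2, adjusted p 0.00154). Suclg1 has 45.3% GC, and with GC and length trends removed its differences grew to -1.72 and 1.57. MSC+RAW-LPS-TW and MSC differed by -0.15 ± 0.14 log2 with an adjusted p of 0.543. The differences of Sdhb and Suclg1 from MSC+RAW-TW rest on 1 sample of that group. Sdhb and Suclg1, like Sdha and Sucla2, were shown by the study for these samples, so their direction is not independent evidence.

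The partners of Suclg1 did not follow it. Sucla2 had 52.4 and 58.3 CPM in MSC+RAW-LPS-TW, 32.4 and 31.7 CPM in MSC+RAW-TW and 42.1 and 53.9 CPM in MSC. It rose by 0.77 ± 0.21 log2 with LPS against MSC+RAW-TW (adjusted p 0.0114), and this fell to 0.22 with an adjusted p of 0.380 once GC and length trends were removed. Against MSC it differed by 0.21 ± 0.16 log2 in MSC+RAW-LPS-TW (adjusted p 0.432) and by -0.56 ± 0.20 log2 in MSC+RAW-TW (adjusted p 0.0578). The latter passed without MSC+RAW-TW replicate 1 (-0.60, 0.0490), without either MSC+RAW-LPS-TW library (-0.59, 0.0213, and -0.56, 0.0253) and with library totals (-0.91, 0.00792), in all under 8 of 15 alternatives. With GC and length trends removed it was -0.055 with an adjusted p of 0.863. Suclg2 had 12.1 and 11.8 CPM in MSC+RAW-LPS-TW, 11.0 and 9.32 CPM in MSC+RAW-TW and 17.0 and 18.1 CPM in MSC. It was highest in MSC, and fell in MSC+RAW-TW against MSC by 0.75 on the log2 scale (SE 0.23, adjusted p 0.0288), a call lost with GC and length trends removed (-0.31, 0.303) and without MSC replicate 1 (-0.80, 0.0937) or MSC replicate 2 (-0.71, 0.140). In MSC+RAW-LPS-TW against MSC its difference of -0.56 ± 0.18 log2 just missed the threshold (adjusted p 0.0507). It passed under 8 of 15 alternatives, among them trends removed (-0.58, 0.0321), all libraries as separate samples (-0.56, 0.0227), without MSC+RAW-TW replicate 2 (-0.56, 0.0492) and library totals (-0.79, 0.00986).

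Of the remaining SDH subunits only Sdhd passed, in 1 comparison. Sdha had 131 and 152 CPM in MSC+RAW-LPS-TW, 152 and 155 CPM in MSC+RAW-TW and 146 and 162 CPM in MSC, and none of its differences exceeded 0.14 log2 in size. Sdhc had 106 and 100.2 CPM, 80.9 and 78.2 CPM, and 91.5 and 122 CPM in the same order of groups, and passed in none of these comparisons. It passed under 3 of 15 alternatives between MSC+RAW-TW and MSC, and under 2 of 15 between MSC+RAW-LPS-TW and MSC+RAW-TW. With library totals its difference between MSC+RAW-TW and MSC was -0.75 with an adjusted p of 0.0188. Sdhd had 60.7 and 65.0 CPM in MSC+RAW-LPS-TW, 46.9 and 46.1 CPM in MSC+RAW-TW and 71.8 and 63.5 CPM in MSC. It was lowest in MSC+RAW-TW, and fell there against MSC by 0.52 on the log2 scale (SE 0.18, adjusted p 0.0496), which was lost without MSC replicate 1 (-0.43, 0.271) or MSC replicate 2 (-0.60, 0.126), with RLE scaling (-0.51, 0.0537) and with no filter (-0.51, 0.0561). Its difference between MSC+RAW-LPS-TW and MSC+RAW-TW was 0.41 ± 0.18 log2 (adjusted p 0.0858), and passed without MSC+RAW-LPS-TW replicate 1 (0.46, 0.0492), with library totals (0.53, 0.0366) and with trends removed (0.48, 0.0424).

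Slc13a3 had 156 and 184 CPM in MSC+RAW-LPS-TW, 232 and 237 CPM in MSC+RAW-TW and 141 and 122 CPM in MSC. The groups did not overlap, with MSC+RAW-TW on top. It rose in MSC+RAW-TW against MSC by 0.85 ± 0.18 log2 (adjusted p 0.00642), a call lost without MSC replicate 2 (0.75, 0.0824) and with GC and length trends removed (0.42, 0.0812). Neighbors in the order missed the threshold by edgeR. The difference of MSC+RAW-LPS-TW from MSC+RAW-TW passed under 7 of 15 alternatives, and that from MSC under 2 of 15. MSC+RAW-LPS-TW lay -0.48 ± 0.18 log2 from MSC+RAW-TW (adjusted p 0.0520; -0.61 and 0.00789 without MSC+RAW-LPS-TW replicate 2, -0.069 and 0.762 with trends removed) and 0.36 ± 0.15 log2 from MSC (adjusted p 0.121; 0.46 and 0.0327 without MSC+RAW-LPS-TW replicate 1). The range over these MSC libraries, 122 to 237 CPM, lay between the OVX and sham levels in BMMs, although both tables were scaled separately.

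In MSC+RAW-LPS-TW against MSC, 1 of 9 members, Acod1, passed either limit. The background was 22.0% of genes at the adjusted p alone, 11.7% higher and 10.3% lower, and 11.8% with a 2-fold change. In MSC+RAW-TW against MSC, 5 of 9 passed the adjusted p, Sdhb, Suclg1 and Slc13a3 higher and Suclg2 and Sdhd lower, beside 31.5% of all genes, 14.8% higher and 16.7% lower. Sdhb and Suclg1 passed the 2-fold limit as well, beside 18.5%.

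**Figure D3:**
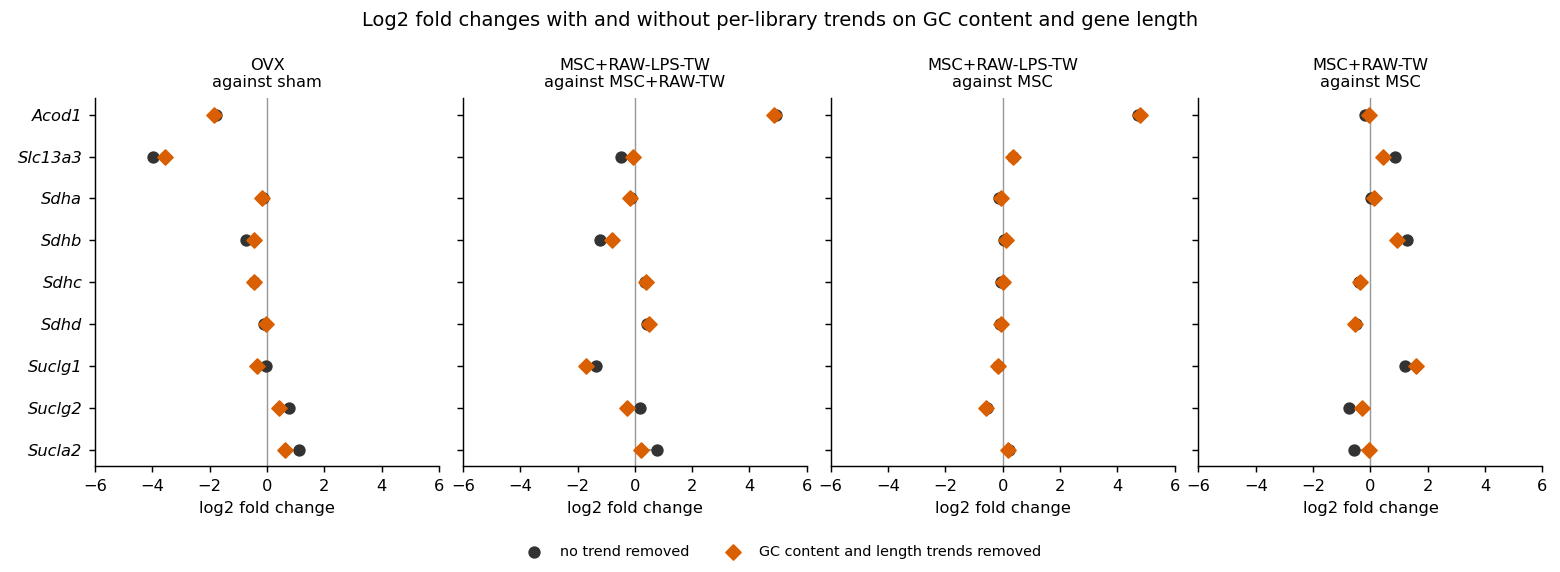
Log2 fold change of the 9 tested genes in the 4 comparisons before (circles) and after (diamonds) removing each library's trends on GC content and gene length. Acod1 and the fall of Slc13a3 in OVX move little, from -3.97 to -3.56 for the latter, while Sucla2 moves from 0.77 to 0.22 in the second panel.

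Ratios within a library are free of its scaling but not of its trend on GC content, which was not removed here. Sdhb has 53.4% and Sdha 48.5% GC. The ratio of Sucla2 to Suclg2 in RPKM was above 1 in 12 of 12 libraries. It was 2.35 ± 0.335 in OVX (SD, n = 3) and 2.28 ± 1.08 in sham (n = 2), where sham replicate 1 had 1.52 and the near-identical pair 3.16 and 2.93. In the MSC experiment it was 3.16 ± 0.410 in MSC (n = 2), 3.40 and 3.94 in the MSC+RAW-TW libraries and 5.39 ± 0.488 in MSC+RAW-LPS-TW (n = 2). Both MSC+RAW-LPS-TW libraries, at 5.04 and 5.73, lay above all other libraries of either experiment. The ratio of Sdhb to Sdha was 4.14 and 4.09 in MSC+RAW-TW, 1.74 ± 0.260 in MSC and 1.96 ± 0.129 in MSC+RAW-LPS-TW. In OVX it was 1.86 ± 0.522, and in sham 2.18 in replicate 1 and 3.64 and 3.31 in the pair. Subunits of a single complex thus differed in their mRNA ratio between libraries of 1 group in sham. These libraries also differed in GC trend, with rho 0.22 in sham replicate 1 and 0.528 and 0.536 in the pair. The part of GC content in the ratios was not tested. The ratio of Sdhd to Sdha in sham was 2.62 in replicate 1 and 1.39 and 1.37 in the pair, the opposite order to that of Sdhb.

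**Figure D4:**
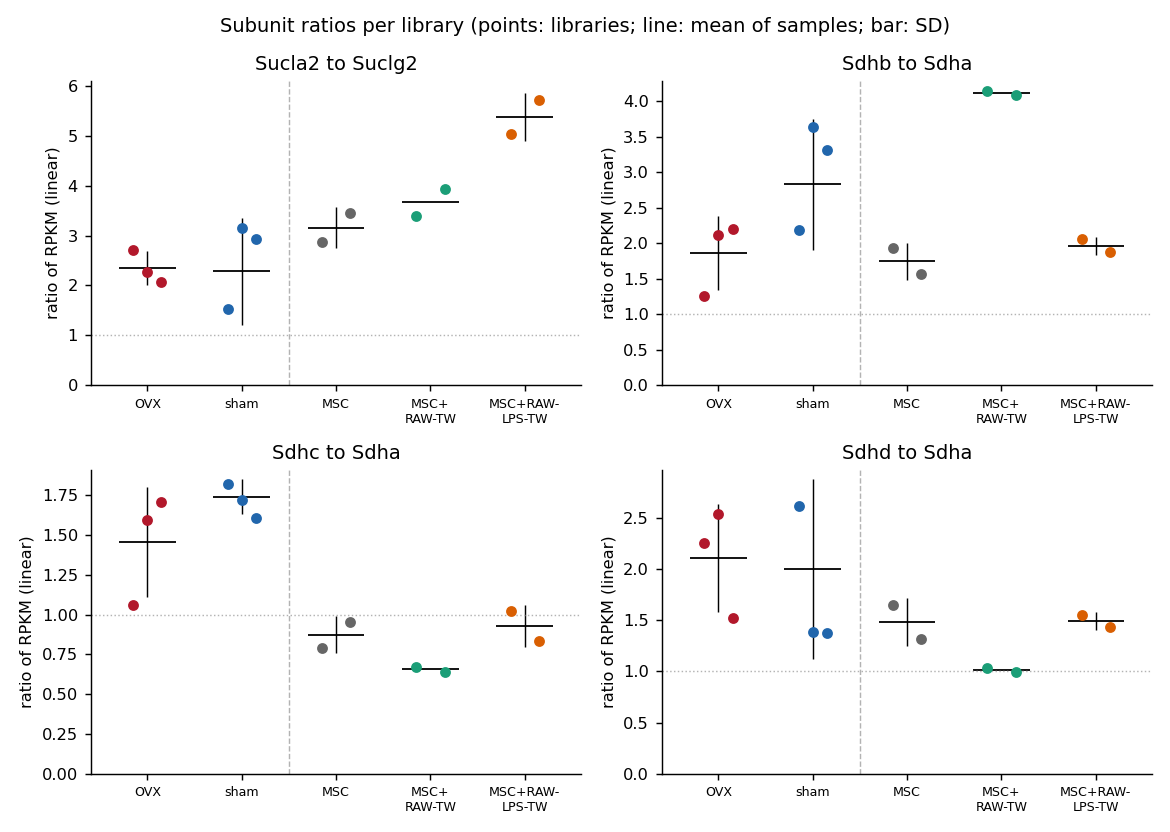
Ratios of RPKM between subunits in each library, on linear axes from 0, with points for libraries, lines for the mean of samples and bars for the SD. Trends on GC content were not removed. The ratio of Sucla2 to Suclg2 is the highest with LPS-stimulated RAW264.7 cells, at 5.04 and 5.73, and that of Sdhb to Sdha in MSC+RAW-TW, at 4.14 and 4.09.

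Around these members, 47 other genes of the pathway were followed. In OVX against sham, 8 of 46 tested passed, 1 higher and 7 lower, beside 14.2% of all genes, 8.03% higher and 6.19% lower, and the list's median difference was -0.13 log2 beside -0.01 over all genes. Slc25a10, the mitochondrial dicarboxylate carrier that exports succinate and malate, fell by 1.85 on the log2 scale (SE 0.27, adjusted p 0.00828), from 152, 236 and 252 CPM in sham to 40.9, 65.9 and 58.7 CPM in OVX. Egln2, a prolyl hydroxylase that forms succinate as it marks HIF-1α, fell by 1.61 (SE 0.26, adjusted p 0.00954). The third-largest fall was Slc13a2, a close relative of Slc13a3, at -1.20 ± 0.31 log2 (adjusted p 0.0404) and only 1.13 CPM in OVX and 2.63 CPM in sham on average, a call lost at differences of -1.25 to -1.14 without any one OVX library (adjusted p 0.0870 to 0.144), at -1.21 without sham replicate 1 (0.0730), at -1.09 without sham replicate 2 (0.0652) and at -0.83 with trends removed (0.130). Hif1a was the 1 gene that rose, by 1.08 ± 0.25 log2 (adjusted p 0.0279). Succinate is known to stabilize its protein, HIF-1α, while this value is for mRNA. The Hif1a call was lost without OVX replicate 1 (0.85, 0.0610), without OVX replicate 2 (1.15, 0.0893) and with trends removed (0.41, 0.176). It was also lost with sham replicate 1 as the only sham sample (0.97). None of 4 SDH assembly factors and 9 succinyl-CoA genes passed by edgeR, nor did Clybl and Auh of itaconate breakdown. Among the succinyl-CoA genes, Alas1 passed as lower under 6 of 16 alternatives. Mut passed as higher under 3 of 16 and Oxct1 under 2 of 16. Sdhaf3, an SDH assembly factor, stood at 1.16 ± 0.36 log2 (adjusted p 0.0660). It passed under 7 of 16 alternatives, among them DESeq2 (1.15, 0.0171), library totals (1.41, 0.0307) and without sham replicate 1 (1.58, 0.0252), and was 0.39 with an adjusted p of 0.408 with trends removed. Aldh5a1, which makes succinate from the GABA shunt, stood at 1.24 ± 0.53 (adjusted p 0.155).

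With LPS-stimulated against unstimulated RAW264.7 cells, 24 of 45 pathway genes passed, 12 in each direction, beside 44.5% of all genes, 24.0% higher and 20.5% lower, with a median of -0.01 log2 beside 0.08 over all genes. The response genes were mostly higher, 7 of 10 with 1 lower. Il1b, the interleukin-1β gene that succinate is known to raise through HIF-1α, had 6394 and 8164 CPM with LPS against 21.7 and 22.3 CPM without (8.35 ± 0.34 log2, adjusted p 5.99e-08). Nfkbiz, an inducible NF-κB cofactor that itaconate derivatives restrain, rose by 3.74 ± 0.23 log2 and Hif1a by 3.03 ± 0.24 log2 (adjusted p 7.13e-07 and 4.95e-06), the latter by 2.26 with trends removed. In the citric acid cycle 4 of 11 fell and 1 rose. Fh1, the fumarase that follows SDH, had 76.8 and 70.9 CPM with LPS and 287 CPM in both libraries without, a fall of 1.98 on the log2 scale (SE 0.17, adjusted p 8.09e-06), and Idh3g, a regulatory subunit of isocitrate dehydrogenase, fell by 1.38 (SE 0.17, adjusted p 0.000127). Slc13a2 had 30 counts in each MSC+RAW-TW library and 2 and 0 in MSC+RAW-LPS-TW. Aldh5a1 had 14 and 13 counts in MSC+RAW-TW and 68 and 62 in MSC+RAW-LPS-TW, a rise of 2.46 ± 0.60 log2 (adjusted p 0.00689). Sdhaf3 stood at 1.04 ± 0.52 log2 (adjusted p 0.127; 0.0160 without MSC+RAW-LPS-TW replicate 1, and 0.760 at 0.23 log2 with trends removed).

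Against MSC alone, MSC+RAW-LPS-TW changed 18 of 45 pathway genes, 11 higher and 7 lower, beside 22.0% of all genes (median 0.04 log2, -0.01 over all genes). Il1b, Nfkbiz and Hif1a led again, at 8.71 ± 0.25, 3.35 ± 0.17 and 2.09 ± 0.17 log2. Oxct1, which passes CoA from succinyl-CoA to ketone bodies, fell by 1.24 on the log2 scale (SE 0.15, adjusted p 8.99e-05) and Fh1 by 1.10 (SE 0.14, adjusted p 0.000199). The SDH assembly factor Sdhaf4 fell by 1.01 (SE 0.24, adjusted p 0.0109), a call lost without MSC replicate 2 (-0.74, 0.175). Sdhaf3 stood at 0.57 ± 0.42 (adjusted p 0.393) and Aldh5a1 at 0.04 ± 0.43 (adjusted p 0.970). In MSC+RAW-TW against MSC, 20 of 45 passed, 12 higher and 8 lower, beside 31.5% of all genes (median 0.20 log2, -0.08 over all genes). The largest rises were Slc25a1, the mitochondrial citrate carrier, at 1.09 ± 0.19, Slc25a10 at 1.02 ± 0.19 and Keap1, the sensor that itaconate alkylates, at 0.98 ± 0.18 (adjusted p 0.00285, 0.00336 and 0.00293). With trends removed the calls of these 3 were lost (adjusted p 0.101, 0.219 and 0.0654). Aldh5a1 fell by 2.43 on the log2 scale (SE 0.60, adjusted p 0.0123; -2.22 and 0.0667 without MSC replicate 1), Sdhaf4 by 1.67 (SE 0.31, adjusted p 0.00348) and Dld, a subunit shared by the 2-oxoacid dehydrogenases, by 1.58 (SE 0.23, adjusted p 0.00156; -0.91 and 0.0110 with trends removed). Sdhaf3 stood at -0.47 ± 0.51 (adjusted p 0.511).

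**Figure D5:**
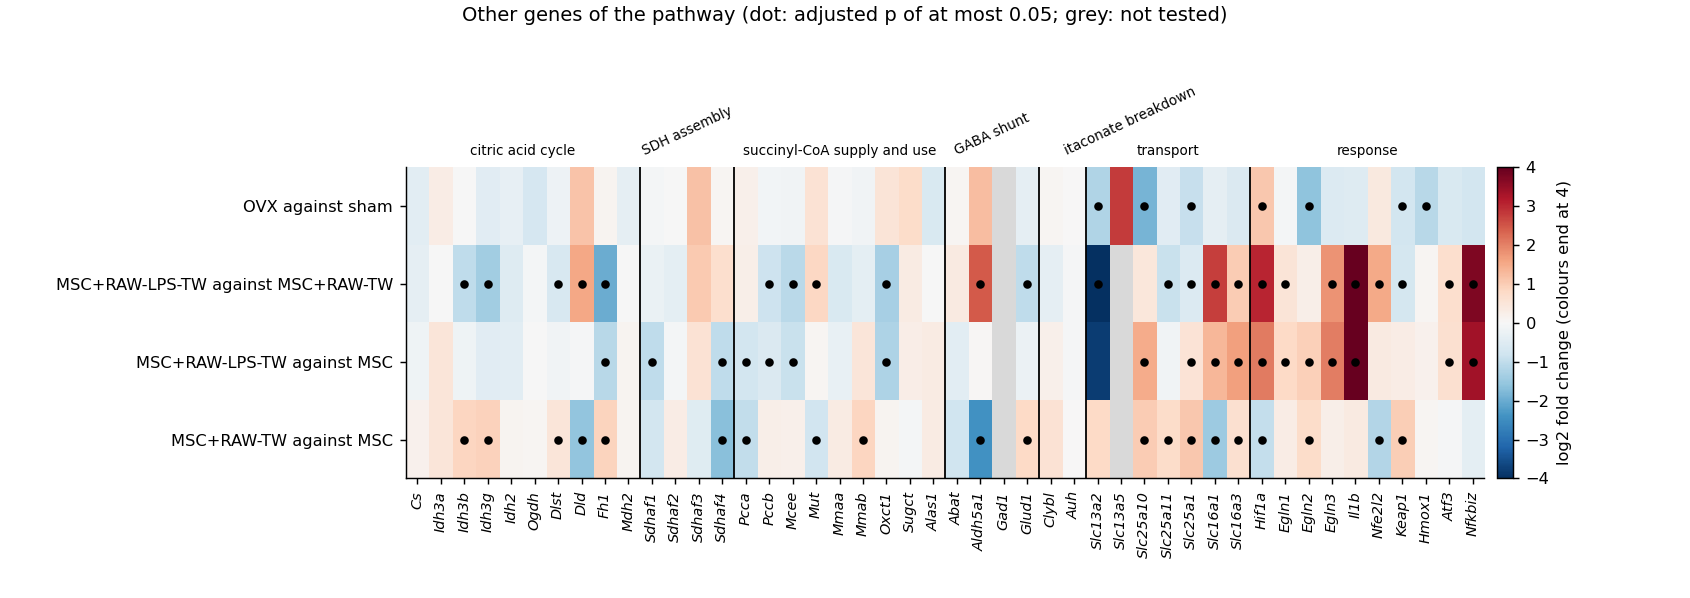
Log2 fold changes of 46 of the 47 other pathway genes (columns, in 7 parts) in the 4 comparisons (rows), with colors ending at 4 in either direction, dots for an adjusted p of at most 0.05 by edgeR and grey for genes not tested. Il1b, Nfkbiz and Hif1a are the highest with LPS-stimulated RAW264.7 cells, and Slc25a10 and Egln2 the lowest called genes in OVX.

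Over the 10 samples of both experiments, the genes most like Acod1 by Pearson's r of log2 CPM among 10566 others were Mmp9 (r = 0.996), a gelatinase, Tnfrsf1b (0.991), a tumor necrosis factor receptor, 2310043P16Rik (0.983), Pde4b (0.980), a cAMP phosphodiesterase, and Sod2 (0.976), the mitochondrial superoxide dismutase. Mmp9, for example, had 54.1 to 59.2 CPM in OVX, 177 and 186 CPM in sham and 718 and 735 CPM in MSC+RAW-LPS-TW, on 1 scaling over all samples. The genes most like Slc13a3 were Slc11a2 (r = 0.979), a divalent metal transporter, Csk (0.954), a kinase that restrains Src, Adap1 (0.949), Tbc1d22b (0.948) and Tbc1d10b (0.947). Slc11a2 moved over a far smaller range, from 69.1 to 83.9 CPM in OVX to 150.3 and 162 CPM in sham. These values describe samples that share libraries, depth and base composition, and Mmp9 also belongs to the osteoclast list.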

How the data were processed

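Directional libraries of poly(A) RNA were read from both ends. Per the labels, the authors trimmed reads with Trim Galore 0.6.7, mapped them to GRCm38 with HISAT2 2.1.0 and counted them per gene with featureCounts 2.0.1; the strand setting and the counting of pairs are not given in the sources used here. The deposited values are raw counts, neither normalized nor filtered, of which all 12 columns were used. Names came from GENCODE on GRCm38, which named 55141 of 55487 genes. MSC+RAW-TW and MSC+RAW-LPS-TW libraries were numbered here in the order of the table's columns, whose names do not tell the samples apart. A pair of libraries was summed where the chi-square of their counts, as a ratio to what sampling alone gives, was flat from low to high counts: it went from 2.496 to 2.696 for sham replicates 2 and 3 and from 3.075 to 3.181 for MSC+RAW-TW, and rose at least 3.009-fold in all other pairs.

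Differences were tested in R 4.3.3 by edgeR 4.0.16, after filterByExpr and TMM scaling, with the two-sided quasi-likelihood F-test, with Benjamini-Hochberg adjustment over all genes tested. All 3 MSC groups entered 1 fit. CPM use TMM factors, log2 CPM a prior count of 2, and SE is the log2 difference over the root of F. Alternatives included DESeq2 1.42.0, lowess trends (span 0.3) on GC content and length, and each library left out in turn. The block on file-name tags, library totals in place of TMM and sham replicate 1 alone were added after the data were seen. Fits were also run on simulated counts with known changes, and the outcome is not given here. Genes outside the 10 were named by size, at most 3 in each direction among those past the threshold. Others were named because the study shows them (Sdhaf3, Aldh5a1, as also the members Sdhb, Suclg1, Sdha and Sucla2). Further ones were the 5 most like Acod1 and Slc13a3 at a mean of at least 5 CPM. Clybl, Auh, Alas1, Mut, Oxct1 in OVX against sham and single marker genes were named after their values were seen. The values of 1 pathway gene are not reported here. The members and lists were chosen with earlier results of these data known.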

Additional observations from a re-analysis of the deposited data

How the results depend on the processing

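The falls of Acod1 and Slc13a3 in OVX, and the rises of Acod1 with LPS-stimulated RAW264.7 cells, kept their direction and passed the threshold under all alternatives run. Over the members' fold changes, 464 of 549 alternative values stayed on the same side of the threshold in the same direction, 16 lost the call, 48 gained it and 21 changed sign, none of these a called value. With library totals the median of all genes moved to 0.23 (OVX against sham), 0.20 (with LPS against MSC+RAW-TW), -0.24 (MSC+RAW-LPS-TW against MSC) and -0.43 (MSC+RAW-TW against MSC) on the log2 scale, so all changes are relative to TMM. Precision was limited by the number of samples, with 1 MSC+RAW-TW sample. The cause of the changes below was not tested.

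In OVX against sham, deviations of same-numbered libraries from their group means correlated at 0.488, -0.046 and 0.466. OVX replicate 2 correlated at 0.077, -0.046 and -0.074 with sham replicates 1, 2 and 3. Sham replicates 2 and 3 are near-identical, so this check cannot decide whether the numbers mark pairs. The numbers were not taken as pairs. Same-numbered libraries also carry the same file-name tag, which replicates 1 and 3 of both groups share. With the replicate block 4 members passed with 2-fold, 5 passed the adjusted p and 28 pathway genes passed, where 13.4% of all genes passed with 2-fold and 40% the adjusted p, against 9.06% and 14.2% without it. Members past the adjusted p numbered 5 with no filter. Pathway genes past it (all genes in parentheses) numbered 16 by DESeq2 (21.8%), 14 with no filter (12%), 19 with all libraries separate (26.3%), 5 with GC and length trends removed (7.29%), 15 with the file-name tag as a block (20.5%) and 5 with sham replicate 1 alone (8.82%). Leaving out a library gave 2 to 4 members with 2-fold, 2 to 5 past the adjusted p and 2 to 11 pathway genes, where 2.17% to 20.8% of all genes passed. No paired analysis was possible for the MSC groups by replicate number because any pair of them shares fewer than 2 numbers in the columns; the block on file-name tags, given below, was fitted instead.

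Between MSC+RAW-LPS-TW and MSC+RAW-TW, 7 members passed with all libraries separate and 7 with the tag block, where 58.4% and 58.2% of all genes passed against 44.5%. In MSC+RAW-LPS-TW against MSC, 3 passed with all libraries separate, and 2 with RLE scaling, a mean of at least 1 CPM, trends removed, the tag block, only both groups compared or library totals, and 1 to 2 with a library left out; all genes passed at 27.7% with all libraries separate and at 12.2% to 29.5% under the others. In MSC+RAW-TW against MSC, 1 member passed with 2-fold with trends removed and 1 with library totals, while 3 and 8 passed the adjusted p, where 21.5% and 35.9% of all genes did. Leaving out a library gave 2 to 6 members and 10 to 24 pathway genes, where 14.9% to 42.5% of all genes passed.

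Signs changed for OVX against sham in Sdhd (0.20 with the replicate block, 0.12 with all libraries separate, 0.17 with the tag block, 0.15 with library totals, -0.35 to 0.72 with a library left out), Sdha (0.11 with library totals, -0.32 to 0.085 with a library left out) and Suclg1 (0.19 with library totals, 0.015 with sham replicate 1 alone). Between MSC+RAW-LPS-TW and MSC+RAW-TW, Suclg2 was -0.27 with trends removed. In MSC+RAW-LPS-TW against MSC, library totals gave -0.18 for Sdhb and -0.030 for Sucla2, trends removed gave 0.014 for Sdhc, and leaving out a library gave -0.027 to 0.13 for Sdhb and -0.24 to 0.17 for Sdhc. In MSC+RAW-TW against MSC, Sdha was -0.34 with library totals, -0.0023 with all libraries separate and -0.052 to 0.092 with a library left out.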
